A study of Mus musculus with 6 samples.

Results

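Carbonic anhydrases are zinc enzymes that interconvert carbon dioxide and water with bicarbonate and protons. The 8 genes described here, Car2, Car3, Car4, Car8, Car9, Car12, Car13 and Car14, were taken by gene symbol from the deposited table of all genes, where each symbol had 1 row, out of 37583 genes counted. The RNA was that of mouse clear cells, the proton-secreting cells of the epididymis, a duct where sperm from the testis mature and are stored. The mice were untreated, were 12 weeks old and carried an EGFP transgene driven by the promoter of ATP6V1B1, which encodes a subunit of the vacuolar proton pump (V-ATPase). EGFP-positive cells were sorted in 2 rounds from 3 regions that follow one another along the duct: the caput nearest the testis, then the corpus, then the cauda. Each region had 2 libraries, here called 1 and 2, and each library pooled 12 epididymides, so no value belongs to a single animal.

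Clear cells acidify the lumen of the duct, and cytosolic carbonic anhydrase supplies the protons that the V-ATPase pumps and the bicarbonate that leaves across the basolateral membrane. Membrane-bound carbonic anhydrases have their catalytic domain outside the cell and act on the bicarbonate of the luminal or interstitial fluid. The low pH and low bicarbonate that result are known to keep sperm quiescent during storage. Of the 8 genes, Car2, Car3, Car8 and Car13 encode cytosolic proteins, and Car4, Car9, Car12 and Car14 encode membrane-bound enzymes.

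Levels are given as RPKM, the deposited reads scaled to gene length and to an adjusted library size, which allows genes to be compared with each other. Where RPKM is not named, levels are CPM, counts per fixed number of reads of a TMM-scaled library size, where TMM scaling assumes that the bulk of genes does not differ. Fold changes are log2 ± SE from edgeR's quasi-likelihood test, positive where the region named first is higher, and calls are those with an adjusted p under 0.05 (Benjamini-Hochberg, over 15816 tested genes). Reads in genes came to 18887128 to 24700717 per library. Whether both pools of a region came from separate mice is not stated in the labels, and the p-values reflect no more than how far these libraries differ, which may be technical. Scaling by library totals in place of TMM shifted the median fold change of all genes by 0.86 for caput against cauda, 0.27 for corpus against cauda and 0.59 for caput against corpus, so every change below is relative to the bulk of genes.

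The labelled cell type was checked against its markers, and other cells' transcripts moved with region. Of 12 clear cell markers, 10 were measurable. All 10 were called higher in caput than in corpus, where 33.2% of all genes were, and higher in corpus than in cauda, where 17.3% were. The summed CPM of the markers was 7995 and 7698 in caput 1 and 2. Corpus 1 and 2 held 1599 and 1894, and cauda 1 and 2 held 733 and 947. Slc26a4 had reads in caput 2 alone and Gcom1 had none. The 13 principal cell markers, all with reads, ran the other way in sum, from 9524 and 10060 CPM for caput 1 and 2 through 81610 and 94120 for corpus to 154000 and 143300 for cauda. They took 1.32% and 1.42% of the gene reads in caput 1 and 2, 7.72% and 8.57% in corpus and, in cauda, 11.7% and 11.2%. Crisp1 and Cd52 supplied most of the corpus and cauda sums. In cauda 1 and 2 Crisp1 held 76160 and 72410 CPM, and Cd52 held 61030 and 53390. By mean CPM, 6 of the 13 markers were highest in cauda, 3 in corpus and 4 in caput (Lcn5, Lcn8, Lcn9 and Gpx5). Summed leukocyte markers ranged from 12.1 to 26.3 CPM over the 6 libraries, and summed sperm markers from 0.168 (corpus 1) to 190.5 (caput 2). Principal cells are the main secretory and absorptive cells of the epididymis, and the part of their RNA in the results on carbonic anhydrases was not tested. In sorted bulk samples, fewer cells of a type and less RNA per cell cannot be told apart.

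Car2, Car4, Car12, Car13 and Car14 had reads in all 6 libraries, and the regions differed in their levels. Car2 and Car4 were abundant in all 6 libraries and highest in corpus, Car12 was highest in caput, and Car14 was highest in cauda, with at most 1.02 RPKM in the caput and corpus libraries. Car3, Car8 and Car9 had at most 4 reads in any library, and Car13 reached at most 0.226 RPKM. Summed over the 8 genes, RPKM came to 259.5 and 253.4 for caput 1 and 2, to 1361 and 1445 for corpus and to 228 and 210.4 for cauda. The corpus sums stood well above those of the other regions, and every caput sum was above every cauda sum.

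**Figure D1:**
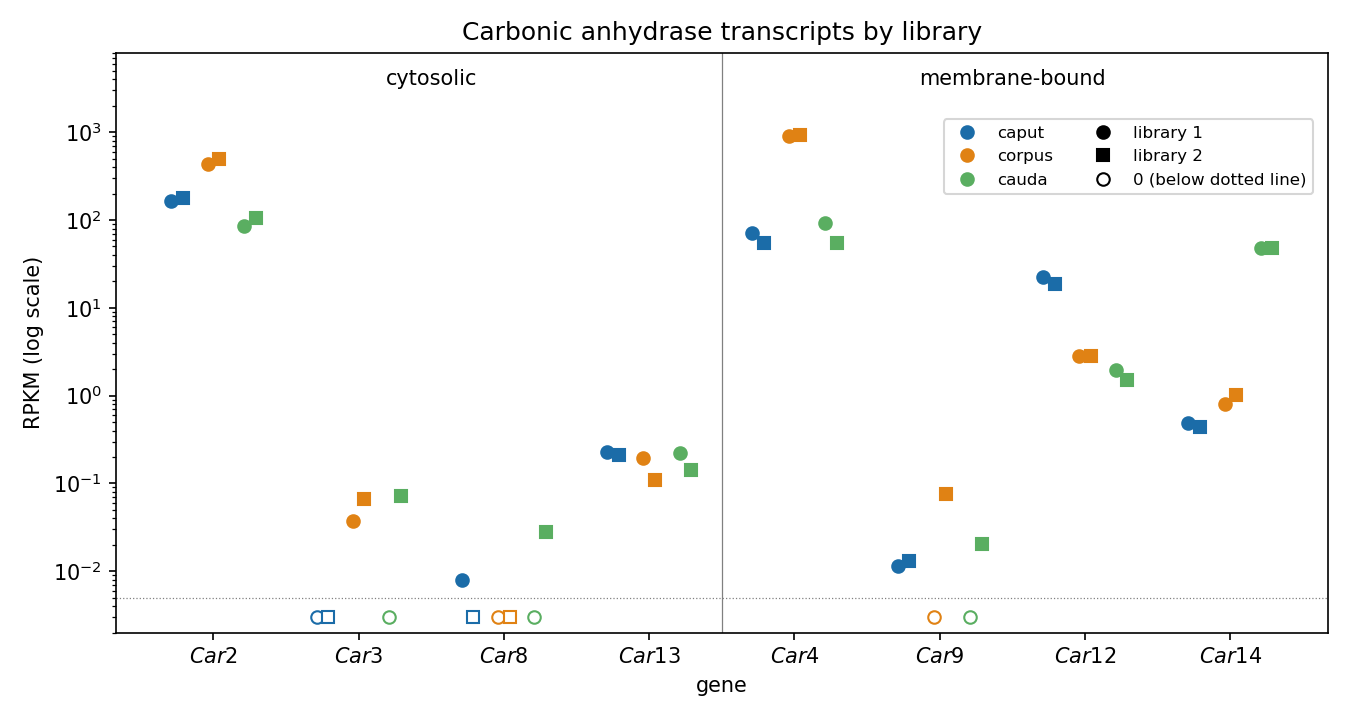
RPKM of the 8 carbonic anhydrase genes on a log axis, by region (colour) and library (circle, library 1; square, library 2); open symbols below the dotted line are values of 0. Car2 and Car4 peak in corpus, Car12 in caput and Car14 in cauda, and the 4 other genes reach at most 0.226 RPKM in any library.

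The filter on low counts was passed by 5 of the 8 genes, namely Car2, Car4, Car12, Car13 and Car14. In a test of any difference among the 3 regions, Car2, Car4, Car12 and Car14 were called, against 75.1% of all genes tested. Between caput and cauda, Car2 and Car12 were higher in caput and Car14 was lower (3 called, against 66.9% of all genes, 33.9% higher and 33% lower). Between corpus and cauda, Car2, Car4 and Car12 were higher in corpus and Car14 was lower (4 called, against 35.4% of all genes, 17.3% higher and 18% lower). Between caput and corpus, Car12 was higher in caput, and Car2, Car4 and Car14 were lower (4 called, against 65% of all genes, 33.2% higher and 31.8% lower). A high share of called genes was thus the background in these libraries, and the sizes of the differences, rather than the counts, set the 4 genes apart from each other. Under library totals the split over all genes moved to 9501 higher and 2564 lower for caput against cauda, 5154 and 1735 for corpus against cauda and 8438 and 2972 for caput against corpus. The 3 comparisons share libraries and are not independent.

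**Figure D2:**
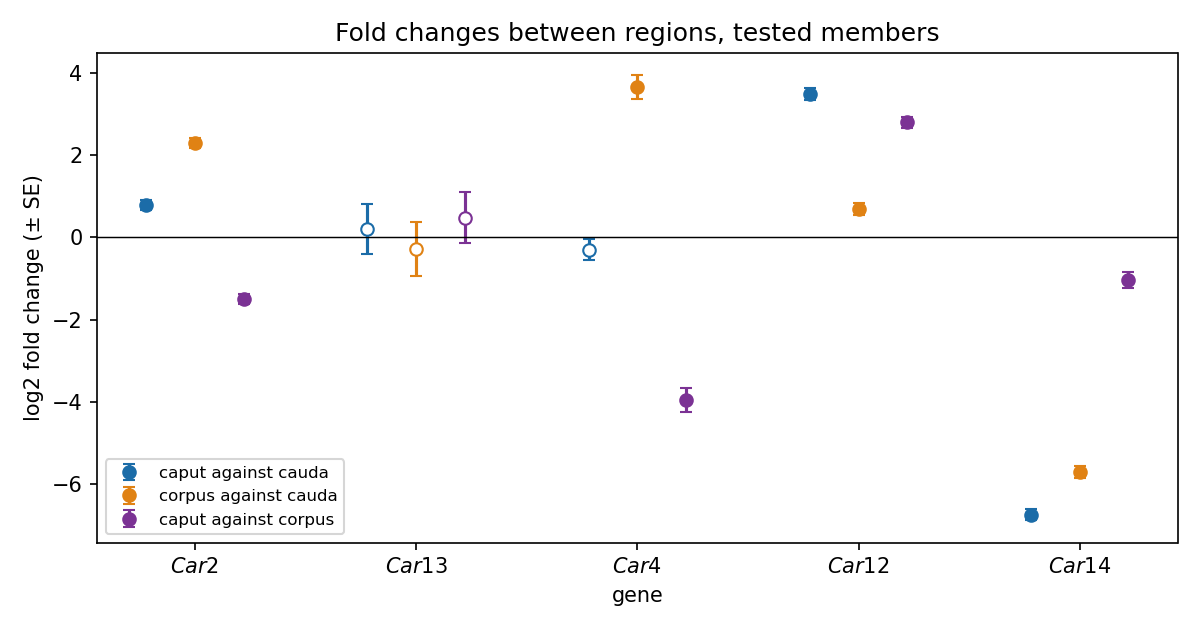
Log2 fold change ± SE of the 5 tested carbonic anhydrase genes in each comparison; filled symbols have an adjusted p under 0.05 and open symbols do not. Car14 has the lowest value, -6.74 for caput against cauda, Car4 runs from -3.95 for caput against corpus to 3.66 for corpus against cauda, and no comparison of Car13 was called.

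Car2 encodes carbonic anhydrase II, a highly active cytosolic enzyme known from proton-secreting cells of the kidney and epididymis. It measured 166 and 179.1 RPKM in caput 1 and 2, 438.8 and 498.5 in corpus and, in cauda, 85.2 and 105.9. The regions did not overlap, with corpus above caput and caput above cauda. On this scale Car2 ranked between the 132nd and the 146th most abundant gene in corpus, between the 242nd and the 272nd in caput, and between the 725th and the 899th in cauda. Corpus exceeded cauda by 2.29 ± 0.12 log2 (adjusted p = 2.26e-06), and caput was below corpus at -1.5 ± 0.12 (adjusted p = 5.58e-06). Caput exceeded cauda by 0.79 ± 0.12 (adjusted p = 0.000315), a value that became 1.65 under library totals. The clear cell markers had another order, since all 10 fell from caput to corpus while Car2 rose.

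Car3, Car8 and Car13, the other cytosolic members, contributed almost nothing to the pool. Car3 encodes an enzyme of low activity that is abundant in skeletal muscle and adipocytes. It had 0 reads in both caput libraries, where 3 reads over the group would equal 0.0473 CPM. The 95% exact counting interval reached 0.0582 CPM. It had 3 reads over the corpus libraries and 2 over the cauda libraries. The 8 adipocyte markers summed to 214 and 208.3 CPM in caput 1 and 2, 135.3 and 130 in corpus and, in cauda, 116.8 and 107.8. Pnpla2 supplied most of this with 1916 to 7285 reads per library, while Plin1 had at most 57 reads, Cidec 42, Adipoq 17 and Fabp4 1, and Cfd had none. The 6 skeletal muscle markers summed to 8.27 and 8.54 CPM in caput, 33.7 and 28.3 in corpus and, in cauda, 94.8 and 80.1, mostly from Mb, and Myh4 had no read. Car8 encodes a protein without carbonic anhydrase activity, known from Purkinje cells. It had 1 read over the caput libraries, 0 in corpus and 2 in cauda. In corpus 3 reads would equal 0.0798 CPM, and the 95% exact counting interval reached 0.0981 CPM. No fold is given for Car3 and Car8, since every region was at or under 3 reads.

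Car13 encodes a further cytosolic enzyme. Its level was 0.226 and 0.212 RPKM in caput 1 and 2, 0.193 and 0.109 in corpus and, in cauda, 0.225 and 0.14. These values rest on 5 to 17 reads per library, and cauda overlapped with both other regions. Car13 differed by 0.2 ± 0.61 log2 for caput against cauda, -0.28 ± 0.66 for corpus against cauda and 0.48 ± 0.62 for caput against corpus (adjusted p = 0.784, 0.783 and 0.516). With SEs of this size, a difference as large as that of Car2 between caput and cauda was not detectable at this depth. In RefSeq's annotation of the GRCm38.p6 assembly, used here for gene order only, the protein-coding genes Car13, Car1, Car3 and Car2 follow one another in that order. Within this row of 4 genes, Car2 was the only gene above 0.229 RPKM in any library.

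Car4 encodes a glycosylphosphatidylinositol-anchored enzyme of the outer membrane face, known from capillary endothelium, kidney tubules and the apical membrane of the epididymal epithelium. It measured 70.4 and 55 RPKM in caput 1 and 2, 918.7 and 942.1 in corpus and, in cauda, 92.1 and 55. Both corpus libraries stood far above the other 4, and the caput and cauda libraries overlapped. In corpus Car4 was the 67th and the 71st most abundant gene by RPKM, against ranks of 799 and 1044 in caput and 834 and 1325 in cauda. Corpus exceeded cauda by 3.66 ± 0.29 log2 (adjusted p = 0.000573), and caput was below corpus at -3.95 ± 0.29 (adjusted p = 0.000167). By the mean RPKM of each region, corpus was 12.7-fold above cauda and 14.8-fold above caput.

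Caput and cauda were not told apart for Car4, at -0.29 ± 0.26 (adjusted p = 0.371), and the sign of that difference depended on the scaling and on the cauda libraries. It was 0.57 under library totals (adjusted p = 0.0839), 0.13 without cauda 1 (adjusted p = 0.467) and -0.62 without cauda 2 (adjusted p = 0.00696). Over all 15 alternatives the adjusted p ranged from 0.00696 to 0.762. Cauda 1 held 207 CPM of Car4 and cauda 2 held 123.5.

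Among the markers of other cells, some were highest in corpus, as Car4 was, and others were not. Of the 13 principal cell markers, Crisp4, Rnase9 and Spag11a were highest in corpus by mean CPM, 6 were highest in cauda and 4 in caput. Rnase9, a secreted ribonuclease-family gene, measured 4462 and 5251 CPM in corpus against 353.4 and 361.5 in caput and 1231 and 1181 in cauda. The 8 endothelial genes summed to 128 and 144.5 CPM in corpus, 33.1 and 39.8 in caput and 8.44 and 13.2 in cauda, and Egfl7 supplied 113.8 and 131.3 CPM of the corpus sums. Vwf had 218 and 213 reads in corpus 1 and 2 and 826 and 730 in caput, and the other 6 genes had at most 14 reads in a corpus library, with none of Cdh5. The red blood cell genes summed to 38.1 and 43.3 CPM in corpus, of which Alas2 made up 38 and 43.2, and at most 5 reads of Hba-a1 or Hbb-b1 were found in any library. The part of principal cell, endothelial or red blood cell RNA in the Car4 level was not tested.

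Upstream sequences are shown for Car4, Car12 and Car14, the 3 membrane-bound genes whose transcripts peaked in different regions. They are the 250 bases before the RefSeq start site in GRCm38.p6, printed 5′ to 3′ on the strand of the gene: chr11:84957504-84957753 (+) for Car4, chr9:66713436-66713685 (+) for Car12 and chr3:95904686-95904935 (-) for Car14. Of the 8 genes, 4 had an entry in that table. Capitals mark the forkhead core TGTTTA and the hypoxia response core ACGTG, each searched on both strands (TAAACA and CACGT on the other strand).
Car4: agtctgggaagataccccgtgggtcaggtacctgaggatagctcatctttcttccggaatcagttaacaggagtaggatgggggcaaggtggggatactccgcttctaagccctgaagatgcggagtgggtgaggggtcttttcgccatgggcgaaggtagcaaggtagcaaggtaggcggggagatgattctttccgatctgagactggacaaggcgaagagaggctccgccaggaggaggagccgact
Car12: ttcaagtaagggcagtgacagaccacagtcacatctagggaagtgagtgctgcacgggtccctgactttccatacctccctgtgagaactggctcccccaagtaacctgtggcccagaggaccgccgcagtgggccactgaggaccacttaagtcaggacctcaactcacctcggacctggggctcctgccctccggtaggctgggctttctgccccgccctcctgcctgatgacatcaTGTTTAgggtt
Car14: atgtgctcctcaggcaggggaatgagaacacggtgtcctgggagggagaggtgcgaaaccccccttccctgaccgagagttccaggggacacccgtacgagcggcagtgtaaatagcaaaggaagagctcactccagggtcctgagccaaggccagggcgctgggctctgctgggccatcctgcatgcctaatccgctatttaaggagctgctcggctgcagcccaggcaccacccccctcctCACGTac
The forkhead core lay at bases 11 to 6 before the start of Car12 and in none of the other 3 windows, Car9 included. It occurs in 12% of 32851 RefSeq windows of this length. The hypoxia response core lay at bases 7 to 3 before the start of Car14 and at bases 18 to 14 before that of Car9, and it occurs in 16.6% of the windows. The Car4 window held neither. A match is a run of letters and was not tested as a binding site. The GC content was 56.4% for Car4, 59.2% for Car12 and 62% for Car14.

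Car9 encodes a transmembrane enzyme known as a target of hypoxia-inducible factor and as a tumour antigen. It was near the detection limit, with 2 reads over the caput libraries, 4 over the corpus libraries, all of them in corpus 2, and 1 over the cauda libraries. The 4 reads equal 0.106 CPM with a 95% exact counting interval of 0.029 to 0.272. The 16 hypoxia response genes on a list, by contrast, all passed the filter. Of these, 7 were called higher and 6 lower in caput than in cauda, where 66.9% of all genes were called, and 4 higher and 3 lower in corpus than in cauda, where 35.4% were. In caput against corpus 7 were higher and 6 lower, where 65% of all genes were called. Under library totals these became 11 and 1, 4 and 1, and 9 and 3, and without cauda 2 corpus against cauda gave 3 and 1. Their medians of 0.12, -0.03 and 0.17 log2 compare with 0.04, 0 and 0.04 over all tested genes.

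Car12 encodes a transmembrane enzyme of basolateral membranes. It measured 22.4 and 18.6 RPKM in caput 1 and 2, 2.8 and 2.82 in corpus and, in cauda, 1.95 and 1.52. The caput libraries were 6.61 to 7.97 times above the corpus libraries, and no region overlapped with another. Caput exceeded cauda by 3.5 ± 0.14 log2 (adjusted p = 5.26e-08) and corpus by 2.8 ± 0.14 (adjusted p = 1.97e-07). The smaller excess of corpus over cauda, 0.69 ± 0.15 (adjusted p = 0.00595), was not called without cauda 2 (0.52, adjusted p = 0.06).

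The fold changes of Car12 against cauda lay within the range of the clear cell markers, and its excess of caput over corpus lay just above that range. For caput against cauda the 10 tested markers ranged from 0.78 (Atp6v1c2) to 4.39 (Hepacam2) with a median of 3.61, for corpus against cauda from 0.3 to 2.22 with a median of 1.2, and for caput against corpus from 0.48 to 2.68 with a median of 2.39. The basal cell markers were also highest in caput in sum, at 316.2 and 418.6 CPM, where the corpus libraries held 184.4 and 157.6 and the cauda libraries 155 and 111.7. Of these 9 genes, 8 were called higher in caput than in cauda and none lower, where 33.9% and 33% of all genes were. In caput against corpus 6 were higher and 1 lower, where 33.2% and 31.8% of all genes were. The part of basal cell RNA in the Car12 result was not tested. Foxi1, the transcription factor that specifies proton-secreting cells, measured 2388 and 2187 CPM in caput, 384 and 388 in corpus and, in cauda, 151 and 203.3. The RPKM of Car12 divided by that of Foxi1 was 0.0212 and 0.0197 in caput, 0.0174 and 0.0174 in corpus and, in cauda, 0.0309 and 0.0179. For Car2 the same ratio was 0.158 and 0.189 in caput, 2.72 and 3.07 in corpus and, in cauda, 1.35 and 1.25. For Car4 it was 0.0669 and 0.0582 in caput, 5.7 and 5.81 in corpus and, in cauda, 1.46 and 0.647. For Car14 it was 0.000469 and 0.000465 in caput, 0.00502 and 0.00632 in corpus and, in cauda, 0.77 and 0.562. Within these libraries the ratio to Foxi1 varied least for Car12 and most for Car14, a description that does not depend on how libraries are scaled.

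**Figure D3:**
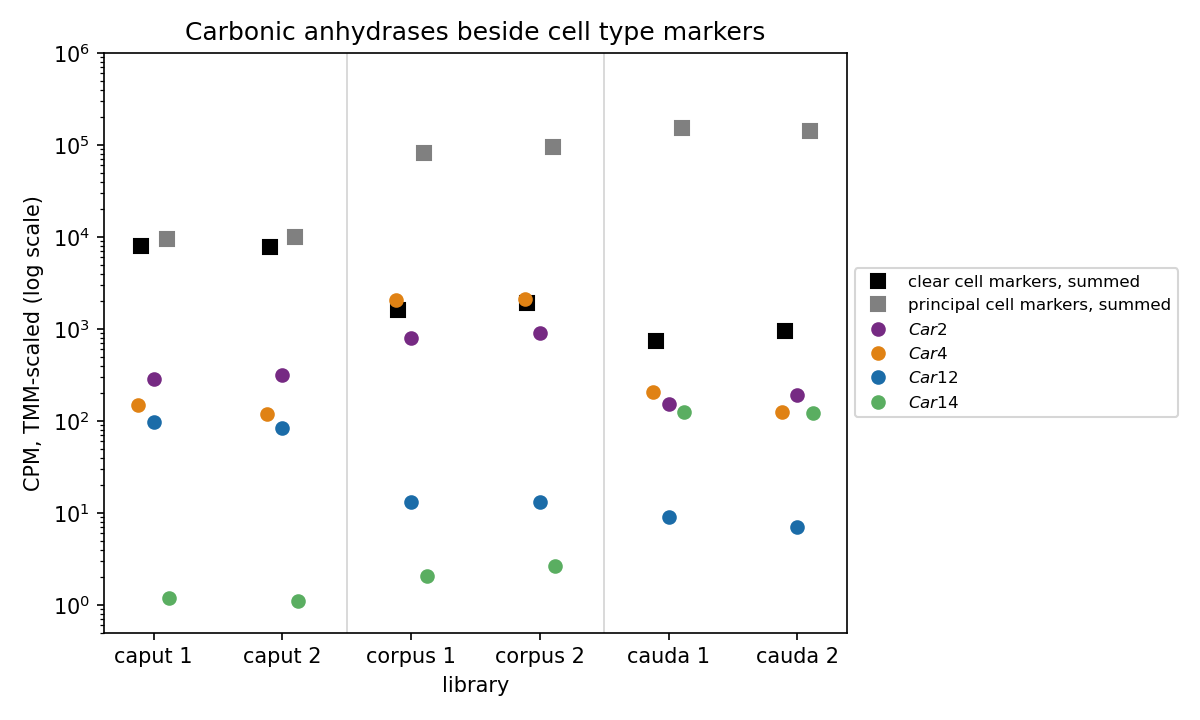
CPM on TMM-scaled library sizes, on a log axis, of Car2, Car4, Car12 and Car14 (circles) in each of the 6 libraries, beside the summed CPM of the 12 clear cell markers (black squares) and the 13 principal cell markers (grey squares). Car12 falls from caput to cauda as the clear cell sum does, whereas Car14 is highest in the cauda libraries, where the principal cell sum is highest and the clear cell sum lowest.

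Car14 encodes a transmembrane enzyme with an extracellular catalytic domain, known from kidney, liver and retina. It measured 0.494 and 0.44 RPKM in caput 1 and 2, 0.809 and 1.02 in corpus and, in cauda, 48.6 and 47.7. The cauda libraries stood apart from the other 4 by at least 46.6-fold, and the caput and corpus libraries did not overlap. Behind these values were 41 and 32 reads in caput, 37 and 52 in corpus and, in cauda, 2148 and 2251. Caput was below cauda at -6.74 ± 0.14 log2 (adjusted p = 1.69e-09), and corpus was below cauda at -5.71 ± 0.14 (adjusted p = 2.83e-08). Caput was also below corpus at -1.03 ± 0.19 (adjusted p = 0.000907), but under library totals this was -0.45 and not called (adjusted p = 0.0649).

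Beside the change of Car14, clear cell markers were at their lowest in cauda and the principal cell sum at its highest, and their part in the Car14 result was not tested. Of the 13 principal cell markers, 6 were called lower and 4 higher in corpus than in cauda, where 18% and 17.3% of all genes were. In caput against cauda 9 were lower and 4 higher, where 33% and 33.9% of all genes were. The 6 markers with their highest mean in cauda were picked by that level, so a lower value in corpus is fixed by the choice. Their sizes for corpus against cauda ran from -2.3 (Lcn12) to -0.31 (Aqp9, not called, adjusted p = 0.365). In RefSeq's GRCm38.p6 annotation Car14 overlaps Aph1a, and the reads were counted without regard to strand. Aph1a measured 4.54 and 3.98 CPM in cauda against 2.35 and 2.7 in caput and, in corpus, 2.02 and 3.04, while Car14 measured 125 and 122.7 CPM in cauda. The part of this overlap in the Car14 counts was not tested. Car9 overlaps Arhgef39 and Tpm2 in the same annotation.

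The make-up of the summed RPKM of the 8 genes changed with region. Car2 made up 64% and 70.7% in caput 1 and 2, 32.2% and 34.5% in corpus and, in cauda, 37.4% and 50.4%. Car4 supplied 27.1% and 21.7% in caput, 67.5% and 65.2% in corpus and, in cauda, 40.4% and 26.1%. Car12 reached 8.62% and 7.36% in caput, was 0.855% and 0.724% in cauda and 0.206% and 0.195% in corpus. Car14 reached 21.3% and 22.7% in cauda and was at most 0.19% in the other regions. Car2 thus led in both caput libraries and Car4 in both corpus libraries, while the leading gene of cauda differed between its 2 libraries.

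**Figure D4:**
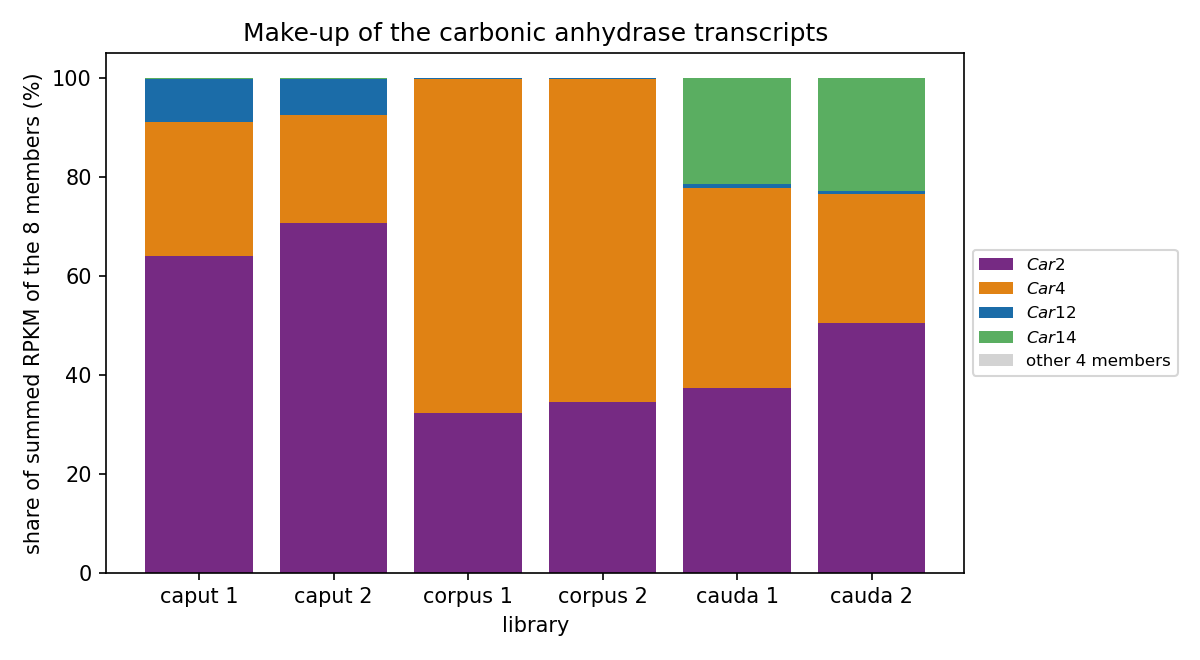
Share of each gene in the summed RPKM of the 8 carbonic anhydrase genes, in percent, for each of the 6 libraries. Car2 leads in both caput libraries and Car4 in both corpus libraries, Car14 fills 21.3% and 22.7% of the cauda libraries, and the 4 other genes together are too small to be seen.

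Membrane-bound enzymes as a class made up 32.6% ± 4.74 of the summed RPKM in caput (SD, n = 2), 66.6% ± 1.6 in corpus and 56% ± 9.19 in cauda. Corpus and caput did not overlap (65.5% and 67.7% against 29.3% and 36%), and neither did cauda and caput, since cauda held 62.5% and 49.5%. With 2 libraries per region, no permutation test of these shares can pass the threshold, and none was run. The ratio of Car4 to Car2 RPKM within a library, which no scaling can move, was 0.424 and 0.307 in caput, 2.09 and 1.89 in corpus and, in cauda, 1.08 and 0.519. Car4 thus exceeded Car2 in both corpus libraries and in cauda 1, and was the lower of the pair in both caput libraries and in cauda 2. In cauda the order of Car2, Car4 and Car14 by RPKM was not fixed, because the ranges of Car2 (85.2 to 105.9) and Car4 (55 to 92.1) overlapped, while Car14 (47.7 to 48.6) was below both. In caput the order was Car2, Car4, Car12 and Car14, and in corpus Car4, Car2, Car12 and Car14, with no overlap between neighbours.

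Of 8 further carbonic anhydrase genes, Car5b, Car7 and Car11 passed the filter, Car5a and Car10 had no read, and Car1, Car6 and Car15 had at most 5 reads in any library. Car5b, a mitochondrial enzyme, measured 5.37 and 5.63 RPKM in caput, 7.57 and 7.56 in corpus and, in cauda, 5.66 and 5.6, which placed it above Car12 in corpus and cauda and above Car14 in caput and corpus. It was higher in corpus than in cauda by 0.42 ± 0.09 log2 (adjusted p = 0.00684) and lower in caput than in corpus at -0.52 ± 0.09 (adjusted p = 0.000854), but the latter turned to 0.07 under library totals (adjusted p = 0.53). Car7, a cytosolic enzyme best known from neurons, measured 1.52 and 2.31 RPKM in caput against 0.724 to 0.813 in the other libraries. It was higher in caput than in cauda by 1.25 ± 0.32 (adjusted p = 0.00702) and than in corpus by 1.23 ± 0.32 (adjusted p = 0.00793). The first of these was not called without cauda 1 (adjusted p = 0.0523), and the second was not called without caput 2 (adjusted p = 0.0529) or corpus 2 (adjusted p = 0.0555). Car11, which encodes a protein without enzyme activity, ranged from 0.577 to 0.984 RPKM and was not called in any comparison.

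Genes that work beside carbonic anhydrases in acid-base transport were followed as a list. Of 28 bicarbonate and acid-base partners, 23 were tested. In caput against cauda 14 were higher and 6 lower, where 33.9% and 33% of all genes were, and the median was 1.88 log2 against 0.04 over all genes. In corpus against cauda 7 were higher and 5 lower, where 17.3% and 18% of all genes were, and the median was 0.25 against 0. Without cauda 1 these became 4 and 5 of 25 tested, with a median of 0.044. In caput against corpus 12 were higher and 6 lower, where 33.2% and 31.8% of all genes were, and the median was 1.08 against 0.04. Slc16a1, a lactate and proton cotransporter, was lower in caput than in cauda at -4.05 ± 0.11 (adjusted p = 6.36e-09) and lower than in corpus at -3.21 ± 0.11 (adjusted p = 3.12e-08). Slc26a3, a chloride and bicarbonate exchanger, was higher in caput than in cauda by 2.27 ± 0.1 (adjusted p = 7.57e-08), and the sodium and proton exchanger Slc9a2 by 3.2 ± 0.16 (adjusted p = 1.65e-07). The apical sodium and proton exchanger Slc9a3 and the anion exchanger Slc26a7 were lower in corpus than in cauda at -4.05 ± 0.44 and -3.43 ± 0.28 (adjusted p = 0.000115 and 1.85e-05). Slc26a7 measured 14.7 and 12.9 CPM in cauda and 0.352 to 1.52 in the other libraries. Slc9a3 measured 11.7 and 12.4 CPM in cauda and 0.0587 to 1.01 in the other libraries. Both shared with Car14 a high level in cauda and a low one elsewhere. The 5 V-ATPase subunits typical of proton-secreting cells were all called higher in caput than in corpus, where 33.2% of all genes were. All were also called higher in corpus than in cauda, where 17.3% of all genes were. Not every one of these calls held with single cauda or corpus libraries left out. The median of the 5 subunits in that comparison was 1.27 log2, and it ran from 1.03 without corpus 2 to 1.5 without corpus 1. All 5 are also on the clear cell marker list, and the promoter of Atp6v1b1 drove the EGFP used for sorting. Atp6v1b1 itself was higher in caput than in cauda by 3.94 ± 0.19 (adjusted p = 1.46e-06), in the same direction as Car12 and opposite to Car14.

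The genes most like each carbonic anhydrase were found by the root mean square difference of log2 CPM, centred per gene, over the 6 libraries, among 13192 tested genes with a gene name. The 6 libraries come from 3 regions, so few independent points stand behind each likeness. Car12 was closest to Ndrg1 (0.099), Tiam2 (0.124) and Slc25a20 (0.127). Ndrg1 measured 94.3 and 80.2 CPM in caput, 10.5 and 12.2 in corpus and, in cauda, 8.26 and 5.78, close to the 98.5 and 83.8, 13 and 13.1, and 9.08 and 7.09 of Car12. Car2 was closest to Pkia (0.162), Cenpt (0.164) and Gdf2 (0.175), of which Gdf2 had under 0.68 CPM. Car4 was closest to RP23-138I21.1 (0.199), Igkv19-93 (0.206) and Gp9 (0.239), and Car14 to Spink5 (0.241), Ptplad2 (0.281) and Upk2 (0.309). Igkv19-93 had at most 1.62 CPM in any library, with 0 in both caput libraries and in cauda 2. Spink5 measured 2318 and 1850 CPM in cauda and 21.6 to 44.4 in the other libraries. The pattern of Car13, which rests on 5 to 17 reads per library, was closest to those of Efcab1 (0.07), Kpna2 (0.096) and Lyst (0.1). A prior count of 2 was added before taking logs. It narrows differences between libraries at low counts such as those of Car13 and Igkv19-93.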

How the data were processed

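RNA-seq libraries of sorted clear cells, 2 per region and each from 12 pooled epididymides, were made with the Clontech SMARTER kit v4 per the labels' protocols. The submitters' processing notes name STAR, HTSeq, edgeR and the mm9 build; the sources used here give no versions. Raw counts per gene were deposited by the authors and are marked as not stranded. The RPKM values were deposited by the authors, and checking them against the counts showed that their library sizes were scaled by factors of 0.774 to 1.39.

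Counts were fitted with edgeR 4.0.16 in R 4.3.3 (filterByExpr by region, TMM, robust quasi-likelihood F test, two-sided, region as the only term). Benjamini-Hochberg adjustment ran over 15816 genes, and SE was taken as the absolute log2 fold change over the square root of F. Reads in no gene, ambiguous or not unique (6.67% to 9.48%, 1.39% to 1.83% and 33.1% to 38.6%) stayed out of library sizes. A count of 0 was read against 3 reads over a region, and 95% exact intervals cover counting error only. Alternatives were limma-trend 3.58.1 on log2(RPKM + 0.1) and log2(RPKM + 1), DESeq2 1.42.0, library totals, DESeq2 size factors, no filter, a gene length trend removed, 4 libraries alone, a replicate block and leaving out each library; those for the gene lists, and leaving out libraries for the shares, were chosen after seeing the data. The members, gene lists and markers were chosen with earlier results of these data known. Genes named from a list are, per comparison, the first 3 by adjusted p among those called. RefSeq promoters and gene order are of GRCm38.p6, another build than that of the files, so no other coordinate is given.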

Additional observations from a re-analysis of the deposited data

How the results depend on the processing

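With 2 libraries per region, the fit leaves 3 residual degrees of freedom per gene. The test therefore draws its estimate of each gene's spread partly from all genes, and the small p-values depend on this. Car3, Car8 and Car9, with at most 4 reads in any library, did not pass the filter and cannot be compared at this depth. Car13 passed it with 5 to 17 reads per library, and its SEs of 0.61 to 0.66 log2 left only large differences detectable. The calls of Car2 in all 3 comparisons, of Car4 in both comparisons with corpus, of Car12 in both comparisons with caput and of Car14 in both comparisons with cauda held under all 15 alternatives run. The number of members called was 3, 4 and 4 for caput against cauda, corpus against cauda and caput against corpus; it became 4 and 3 for the first and second without cauda 2, and 3 for the last under library totals. With a replicate block these counts were unchanged, while 10850, 6090 and 10633 genes were called in all. The labels do not say what equal replicate numbers share. Deviations of same-numbered libraries correlated at 0.187 (caput with corpus), 0.162 (caput with cauda) and 0.134 (corpus with cauda) over 15816 genes, and whether a shared day, batch or mice lies behind this was not tested.

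Direction turned under library totals for Car4 in caput against cauda (0.57), for Car5b in caput against cauda (0.76, called, adjusted p = 7e-05) and caput against corpus (0.0698) and for Car11 in caput against cauda (0.27). It also turned within the ranges over single libraries left out: Car4 in caput against cauda ran from -0.62 (without cauda 2) to 0.13 (without cauda 1), and Car13 from -0.0975 (without cauda 2) to 0.58 (without cauda 1). In corpus against cauda Car13 ran from -0.72 (without corpus 1) to 0.0911 (without cauda 1) and Car7 from -0.0539 (without cauda 1) to 0.11 (without cauda 2). Car11 in caput against corpus ran from -0.16 (without caput 2) to 0.21 (without caput 1). The cause was not tested. Calls were lost for Car12 in corpus against cauda without cauda 2, and for Car14 in caput against corpus under library totals. Car5b was called lower in caput than in cauda once a length trend was removed (-0.48, adjusted p = 0.00179). Taken from raw counts in place of RPKM, the membrane-bound share was 43.1% in caput and 71.3% in corpus, since counts weight long genes more.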
